A study of Sus scrofa with 23 samples.

Results

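The cytosolic ribosomal proteins are the proteins of the ribosome that translates mRNAs of the nuclear genome. Their transcripts were followed across 4 ages of pig tissue. Members were genes whose single symbol in the array's annotation begins with RPL or RPS and goes on with a digit, A or P, without the RPS6K kinases and without names that end in BP1 or in L and a digit. This gave 60 genes of the 6765 with a single symbol, 35 of the large (60S) subunit and 25 of the small (40S) subunit. RPL22L1, RPL26L1, RPL7L1, RPS19BP1, RPS6KA1, RPS6KA3 and RPS6KC1, the 7 genes with the same start that the rule leaves out, were not counted. The paralogs RPS27L and RPL36AL, whose names end in L alone, stayed in. All 60 carried the same symbol in the RefSeq gene table through their Entrez identifier. For the 24 genes with several probe sets, the probe set of the highest mean over all samples stood for the gene.

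The pigs were offspring of German Landrace gilts, and their label for diet reads gestational low protein [LP] throughout. Tissue was taken before birth at 94 days post conception (94 dpc, n = 5) and after birth at 1, 28 and 188 days (1, 28 and 188 dpn, n = 6 each). As all 4 stages share that diet, its effect cannot be read from these samples. Offspring of 3 gilts were used at each stage without the dam being named, so animals may share a dam and the p-values may be too small. The labels give liver as the tissue, whereas the title of the series names muscle.

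A ribosome joins a small subunit, which reads the mRNA, to a large subunit, which forms the peptide bond and passes the chain through an exit tunnel. Its proteins are needed in nearly equal amounts. Their mRNAs begin with a terminal oligopyrimidine tract, through which mTOR signalling is known to set how strongly they are translated. In skeletal muscle the number of ribosomes is a known limit on how fast protein can be made during growth.

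Values were array signals on a linear scale, as deposited, with the 2% trimmed mean of each array at 500.1 to 500.2. Changes are differences of log2(signal + 16), later minus earlier stage, and a gene was called at an adjusted p under 0.05 in limma, adjusted by Benjamini and Hochberg's method across the 23999 probe sets. Markers of skeletal muscle, 11 of 15 measured, were near the top of every array, at a median percentile of 99.6 to 99.9. Markers of hepatocytes, 14 of 15 measured, lay between 17.3 and 90.1. The summed signal of the muscle markers had medians of 329000, 465000, 650000 and 808000 at 94 dpc and 1, 28 and 188 dpn. That of markers of matrix-forming cells, 7 of 9 measured, had medians of 51100, 16200, 16900 and 13500, and that of proliferating cells, 10 of 12 measured, of 6840, 1510, 3480 and 1570. The part of these shifts in the results below was not tested, and in whole tissue fewer cells of a type and less RNA per cell cannot be told apart.

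Samples of 1 dpn stood apart in the GAPDH control and in pairs of probe sets, though not in the actin control. The ratio of the 5' to the 3' GAPDH control probe sets was 0.0868, 0.148 and 0.138 in replicates 2, 4 and 5 of 1 dpn, and 1.09 to 1.29 in all other samples. Some transcripts have a pair of probe sets whose identifiers differ only in the letter A or S. For 6 such pairs of bright genes outside the family, the dimmer probe set held 8.01%, 12%, 12.8%, 15.9% and 8.07% of the brighter in replicates 1, 2, 4, 5 and 6 of 1 dpn. The share was 3.53% in replicate 3 of 1 dpn and 2.08% to 3.9% at the other stages. Pairs of 8 ribosomal protein genes gave 7.38% to 15% in the same 5 samples and 4.21% in replicate 3. Counts and calls in comparisons with 1 dpn are given below also without the samples of low GAPDH ratio, without those of high A and S ratio, or both in turn, where this changed them. For lists of related genes, medians stand in for counts without the samples of high A and S ratio. The part of any of these measures in the results was not tested.

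**Figure D1:**
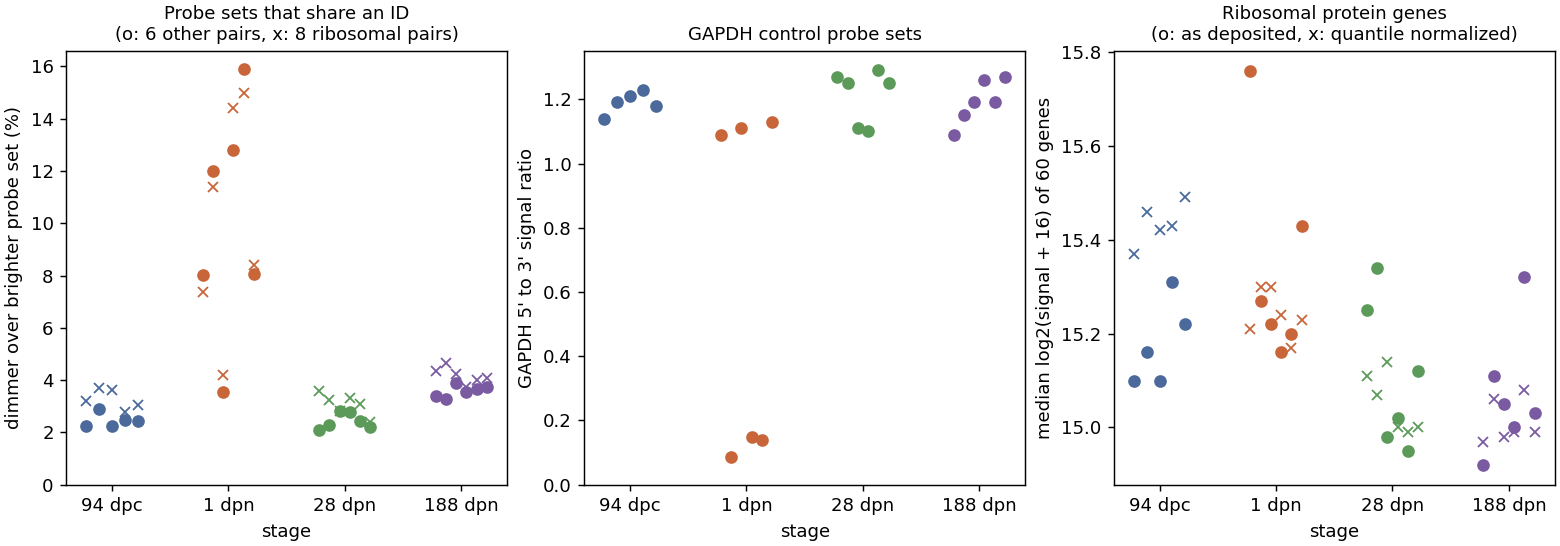
Left, the signal of the dimmer over the brighter probe set of A and S pairs in percent (circles, median of 6 pairs outside the family, crosses, median of 8 ribosomal protein pairs); middle, the GAPDH 5' to 3' signal ratio; right, the median log2(signal + 16) of the 60 ribosomal protein genes as deposited (circles) and after quantile normalization (crosses), for each sample by stage. Among the 1 dpn samples, 5 lie above 7% in the left panel and 3 lie below 0.2 in the middle panel, and the 94 dpc samples hold the highest crosses in the right panel.

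Ribosomal protein transcripts were among the brightest on the arrays at every age. Their median signal had a stage mean of 37100 ± 2340 at 94 dpc (SD, n = 5), 42000 ± 7150 at 1 dpn, 35500 ± 3940 at 28 dpn and 34600 ± 3410 at 188 dpn (SD, n = 6 each). The median member stood at the percentile 99.4 to 99.7 of all probe sets. Together the 60 genes held 9.35% to 10.4% of the total signal at 94 dpc, 8.84% to 10.7% at 1 dpn, 7.64% to 8.86% at 28 dpn and 7.55% to 8.97% at 188 dpn. No sample of 28 or 188 dpn reached the lowest share of 94 dpc, while the ranges of 94 dpc and 1 dpn overlapped. The mean signal over all samples was above 20000 for 53 members. RPL30, RPS15A and RPL26 were below 100, and these 3 did not pass the filter on dim probe sets that was run as an alternative.

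The transcripts moved unequally over the ages. The moderated F test of limma found a difference among the 4 stages for 23 of 60 members as deposited, 38.3%, where 46.6% of all probe sets were called. After quantile normalization, which gives every array the same distribution of signals, it was 44 of 60, against 45.1% of all. The highest stage mean of a member was at 94 dpc for 12 genes, at 1 dpn for 35, at 28 dpn for 5 and at 188 dpn for 8, as deposited. After quantile normalization the same counts were 45, 12, 1 and 2. The direction of the family as a whole depended on the scaling. Calls that held under all 4 scalings are singled out below, which were as deposited, quantile normalized, centred on each array's median, and centred on the median of the 60 genes themselves. The last of these, chosen after seeing the data, shows which members moved against the rest of the family. It takes the family's own median out of every array, so a near balance of rises and falls among members is built in. Its counts therefore say nothing of the family as a whole, also when set against the shares of all probe sets.

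**Figure D2:**
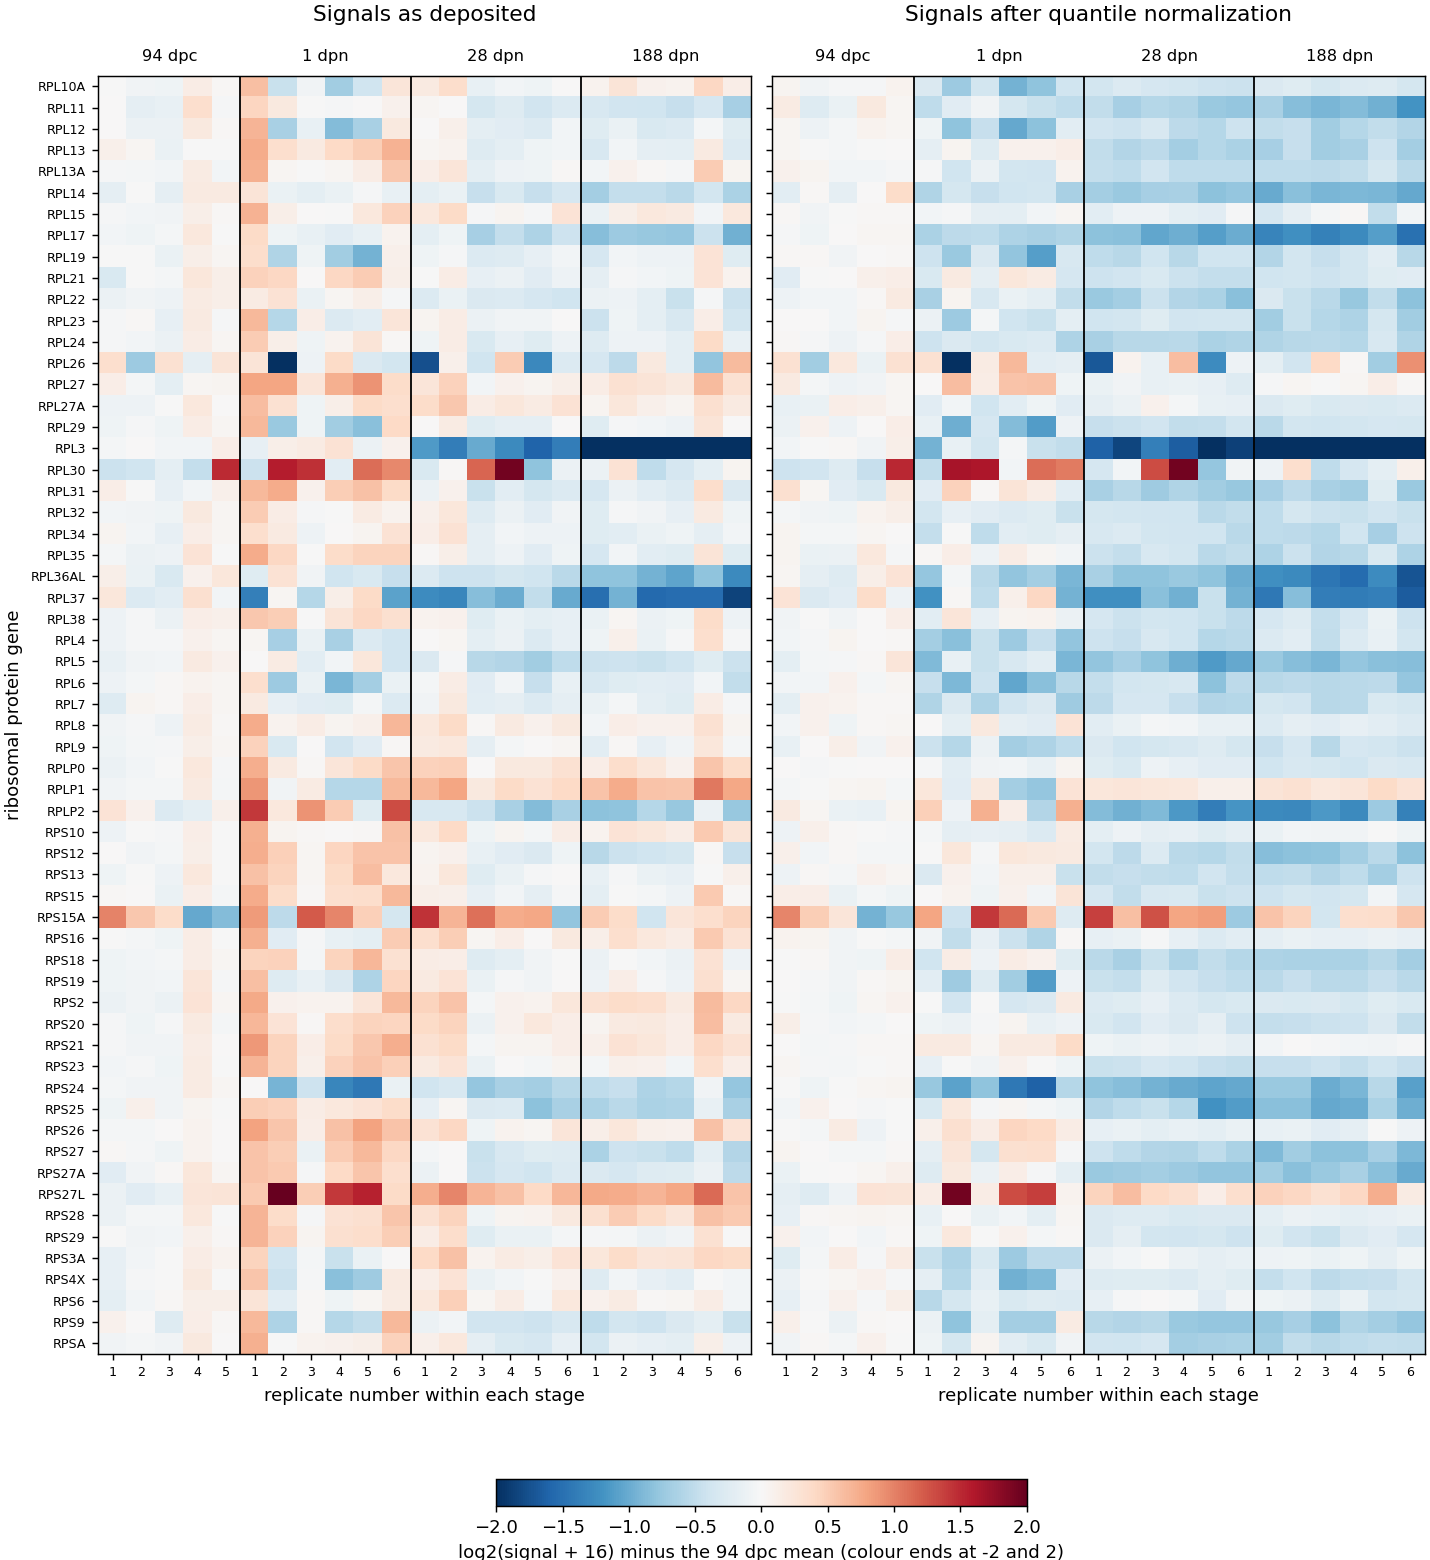
Each cell is log2(signal + 16) of a ribosomal protein gene (row) in a sample (column, by stage and replicate number) minus the gene's mean at 94 dpc, as deposited (left) and after quantile normalization (right); red is higher, blue is lower and the colour ends at -2 and 2. RPL3 is blue in every 28 and 188 dpn sample in both panels, and RPS27L is darkest red in replicates 2, 4 and 5 of 1 dpn.

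At 188 dpn against 94 dpc, 3 members rose (5%, against 13.3% of all probe sets) and 10 fell (16.7%, against 23.4%). The median change of the 60 was -0.07, and -0.08 over all probe sets. After quantile normalization 0 rose and 37 fell, against 17.4% and 18.3% of all probe sets, with a median of -0.44 against 0.08 over all. Of those 60 genes 45 then had an unadjusted p under 0.05. Centring on the array median gave 17 higher and 4 lower, against 22% and 16.7% of all, and centring on the ribosomal protein median gave 6 higher and 6 lower, against 14.8% and 19.4%. All 4 scalings called RPL3, RPL17, RPL36AL and RPL37 lower, and no member was called higher in all 4. The samples of the stages did not overlap for 6 members that were higher and 9 that were lower at 188 dpn, 10% and 15%, against 10.7% and 18.5% of all probe sets.

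**Figure D3:**
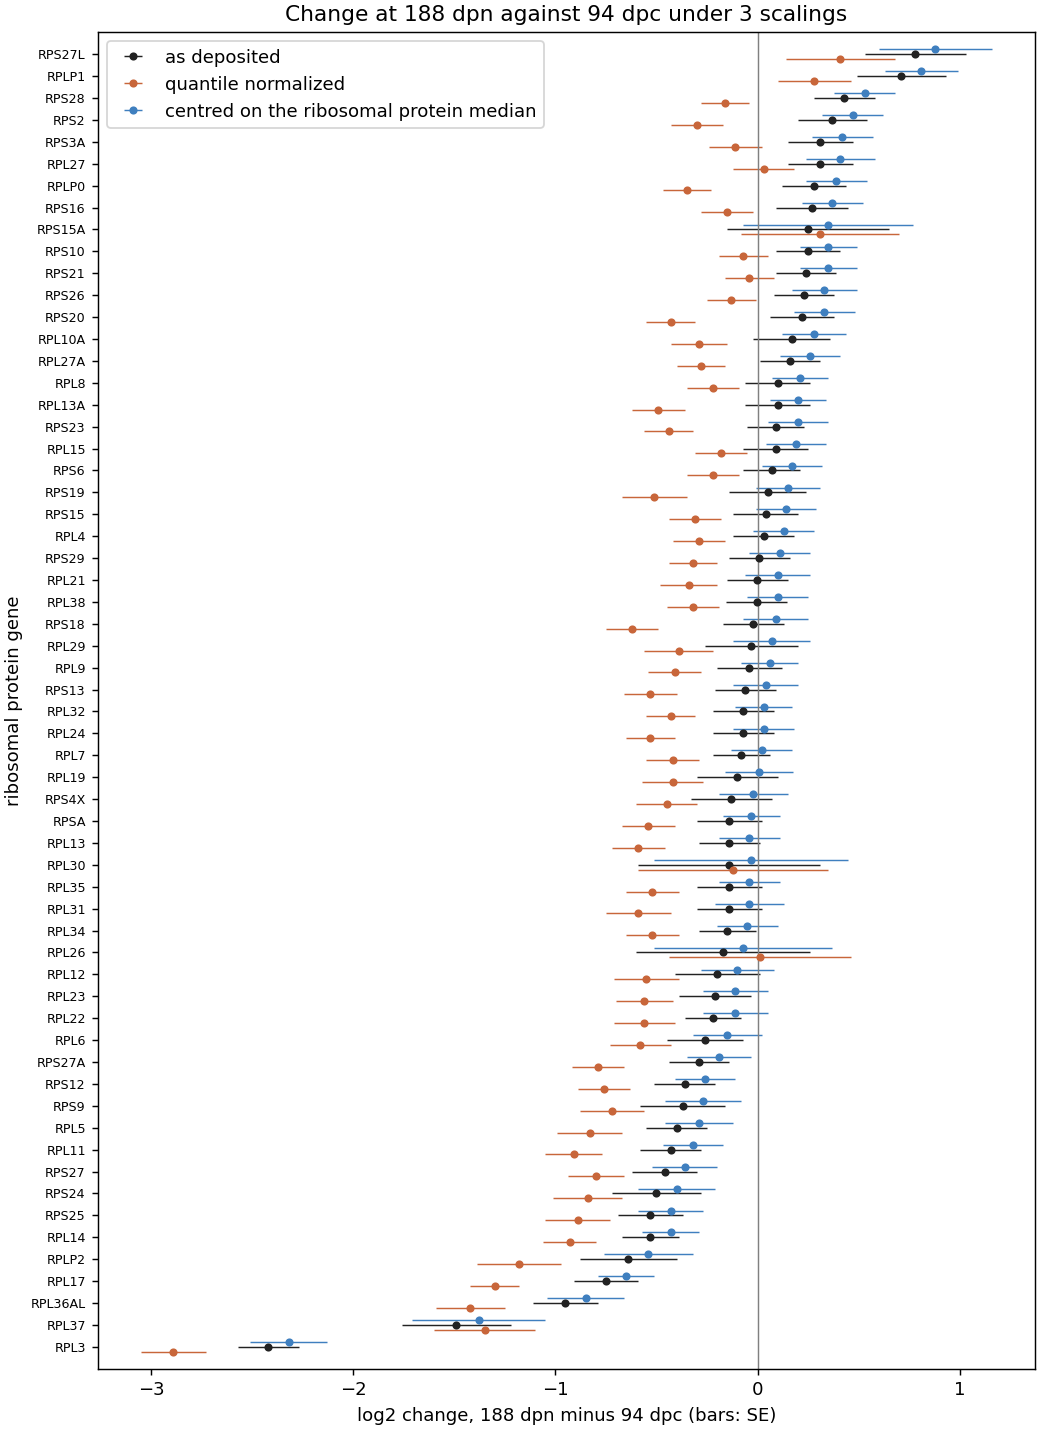
Change in log2(signal + 16) of each of the 60 ribosomal protein genes, 188 dpn minus 94 dpc, as deposited (black), quantile normalized (orange) and centred on the ribosomal protein median (blue); bars are standard errors of the limma fit. RPL3 lies farthest to the left at -2.42, -2.89 and -2.32, and the orange points lie left of the black ones for most genes.

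At 1 dpn against 94 dpc, 9 members rose (15%, against 8.08% of all probe sets) and 1 fell (1.67%, against 17.9%), with a median change of 0.23 where all probe sets had -0.11. After quantile normalization 1 rose and 17 fell, against 11% and 12.3% of all, with a median of -0.18. Centring on the array median turned this to 32 higher and 0 lower, against 15% and 10.3% of all, and centring on the ribosomal protein median to 2 higher and 4 lower, against 5.14% and 22%. Without the 3 samples of low GAPDH ratio 6 rose and 1 fell, against 7.81% and 17.2% of all. Without the 5 samples of high A and S ratio, which leaves 1 sample at 1 dpn that is assumed to vary like the rest, limma called 0 of 60, where 3.8% of all probe sets were higher and 6.68% lower, and 1 member had an unadjusted p under 0.05. Single samples also moved the count, to 6 calls without replicate 3 of 94 dpc and to 19 without replicate 3 of 1 dpn. The matching shares of all probe sets are not given.

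At 28 dpn against 1 dpn, 0 members rose (against 10.1% of all probe sets) and 14 fell (23.3%, against 7.03%), with a median of -0.23 and 0.03 over all. Of the 60, 26 had an unadjusted p under 0.05. All 14 were also among the 18 lower genes after quantile normalization, which called 9.05% of all probe sets higher and 7.91% lower. They were likewise among the 22 lower genes after centring on the array median, against 8.23% higher and 8.5% lower of all. Centring on the ribosomal protein median left RPL3, RPL31, RPLP2 and RPS25 lower and called RPL4, RPL6, RPLP1, RPS3A and RPS4X higher, against 2.78% lower and 16.2% higher of all. RPL3, RPL31, RPLP2 and RPS25 were thus lower under all 4 scalings. Without the samples of low GAPDH ratio 8 fell and 0 rose, against 5.11% and 8.29% of all. Without those of high A and S ratio RPL3 and RPLP2 alone fell and 0 rose, against 1.73% and 3.13%. Leaving out single samples gave 8 calls without any of replicates 3, 4, 5 and 6 of 28 dpn, 9 without replicate 2 or 5 of 1 dpn and 20 without replicate 3 of 1 dpn. Shares of all probe sets are not given for these fits.

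RPL3 and RPL36AL fell at 188 dpn against 28 dpn and 0 members rose, so 2 of 60 were lower (3.33%, against 9.15% of all probe sets) and none higher (against 4.66%). The lowest and highest changes were -1.12 and 0.35, and 3 members had an unadjusted p under 0.05. RPL3 was called under all 4 scalings, and RPL36AL as deposited and after quantile normalization.

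RPL3, a large subunit protein that reaches close to the site of peptide bond formation, had the largest change of the 60 genes at 188 dpn against 94 dpc and at 28 dpn against 1 dpn, there with RPLP2 close behind. Its signal was 23400, 24300, 23200, 23200 and 26500 in the samples of 94 dpc. At 1 dpn the lowest, median and highest were 21500, 25900 and 29400, at 28 dpn 7960, 9550 and 12000, and at 188 dpn 3930, 4490 and 5210. Every 28 dpn sample lay below every sample of 94 dpc and 1 dpn, and every 188 dpn sample below every 28 dpn sample, while 94 dpc and 1 dpn overlapped. Stage means were 24100 ± 1400 at 94 dpc (SD, n = 5), 25300 ± 2960 at 1 dpn, 9870 ± 1440 at 28 dpn and 4520 ± 483 at 188 dpn (SD, n = 6 each). The highest stage mean was 5.61 times the lowest, the widest range of the 60 genes.

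RPL3 fell by 1.36 ± 0.14 (SE) on the log2 scale at 28 dpn against 1 dpn, 2.57-fold, at an adjusted p of 6e-07 in limma. It fell by a further 1.12 ± 0.14 at 188 dpn against 28 dpn, 2.17-fold, with limma's adjusted p = 1.1e-05. Set against 94 dpc, the change at 188 dpn was -2.42 ± 0.15, 5.35-fold lower (limma, adjusted p = 1.6e-11). This last change was -2.89 after quantile normalization, -2.32 relative to the ribosomal protein median, -2.13 relative to the array median and -2.46 to -2.38 with any single sample left out. At 28 dpn against 1 dpn it was -1.46 without the samples of high A and S ratio (limma, adjusted p = 0.0016). At 1 dpn against 94 dpc RPL3 was not called, at 0.06 (limma, adjusted p = 0.8), and at -0.41 after quantile normalization. RPL3 had a single probe set. Its paralog RPL3L, known from mouse and human as a protein of striated muscle, was not analysed here.

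RPL37, RPL36AL and RPL17 were also lower at 188 dpn than at 94 dpc under every scaling. RPL37, a zinc-binding protein of the large subunit, had signals of 458 to 866 at 188 dpn with a median of 574, against 1980, 1390, 1450, 2110 and 1620 at 94 dpc. The change was -1.49 ± 0.27, 2.8-fold lower (limma, adjusted p = 9.4e-05), and no sample overlapped. At 1 dpn its signals ran from 642 to 2210 with a median of 1430, and the 3 samples of low GAPDH ratio held the 3 highest values. It fell by 1 on the log2 scale at 1 dpn against 94 dpc without those samples (limma, adjusted p = 0.0037), while over all 1 dpn samples the change was -0.41 (limma, adjusted p = 0.29). RPL37 was the dimmest member above 100, with a mean signal of 1120.

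RPL36AL, a close paralog of RPL36A, which sits where the emptied tRNA leaves the ribosome, was lowest at 188 dpn. Its lowest, median and highest signals were 3540, 4660 and 4910 at 188 dpn, against 5880, 6480 and 7100 at 28 dpn. At 94 dpc the samples had 9310, 7820, 6930, 9150 and 10100. No 188 dpn sample reached the lowest of either stage. The change was -0.55 ± 0.15 against 28 dpn (limma, adjusted p = 0.016) and -0.95 ± 0.16 against 94 dpc (limma, adjusted p = 4.5e-05), 1.47-fold and 1.93-fold lower. At 1 dpn against 94 dpc it was -0.20 (limma, adjusted p = 0.4), but -0.62 after quantile normalization (limma, adjusted p = 0.0077), and at 28 dpn against 1 dpn -0.20 (limma, adjusted p = 0.43). Relative to the array median the first of these was 0.07. They were -0.07 and -0.33 without the samples of high A and S ratio, neither called. The call against 28 dpn at 188 dpn was lost relative to the array median and to the ribosomal protein median (limma, adjusted p = 0.065 and 0.072). RPL36A was not analysed here.

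RPL17, which lies at the exit tunnel, had signals of 21900, 25000 and 31700 (lowest, median and highest) at 188 dpn, against 40700, 39900, 41200, 49100 and 42200 at 94 dpc. The stages did not overlap, and the change was -0.75 ± 0.16, 1.68-fold lower (limma, adjusted p = 0.00055). At 28 dpn its values ran from 26700 to 40100 and overlapped both other stages. A second, dimmer RPL17 probe set did not follow: it had stage means of 1430 at 188 dpn and 1170 at 94 dpc, with a change of 0.29 (limma, adjusted p = 0.46), and the mean of both was not called, at -0.23 (limma, adjusted p = 0.38).

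RPL31 and RPL27, both of the large subunit, were called higher at 1 dpn. RPL31, another protein near the tunnel exit, had 40800, 56000 and 64100 at 1 dpn (lowest, median and highest), against 42000, 38300, 34300, 37100 and 41100 at 94 dpc. The stages overlapped in 1 of the 1 dpn samples, replicate 3, and the change was 0.49 ± 0.16 (limma, adjusted p = 0.03). It fell by 0.70 ± 0.16 at 28 dpn against 1 dpn, with signals of 28200, 32500 and 41000 at 28 dpn (limma, adjusted p = 0.0027). This change was -0.30, and no longer called, without the samples of high A and S ratio (limma, adjusted p = 0.62). RPL27 had 39000, 55500 and 61400 at 1 dpn, against 36200, 32200, 28900, 34000 and 34200 at 94 dpc, all samples higher, with a change of 0.63 ± 0.16 (limma, adjusted p = 0.004). Without the samples of high A and S ratio the changes against 94 dpc were 0.08 for RPL31 and 0.24 for RPL27, and neither was called. Both also lost the call after quantile normalization, at 0.08 and 0.31, and without the samples of low GAPDH ratio, at 0.37 and 0.47. Another bright probe set of each had 0.41 for RPL31 and 0.39 for RPL27 there, not called (limma, adjusted p = 0.063 and 0.06). A dim RPL27 probe set had 0.60 (limma, adjusted p = 0.15). At 28 dpn against 1 dpn the other bright RPL31 probe set was called lower, at -0.54 (limma, adjusted p = 0.017).

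**Figure D4:**
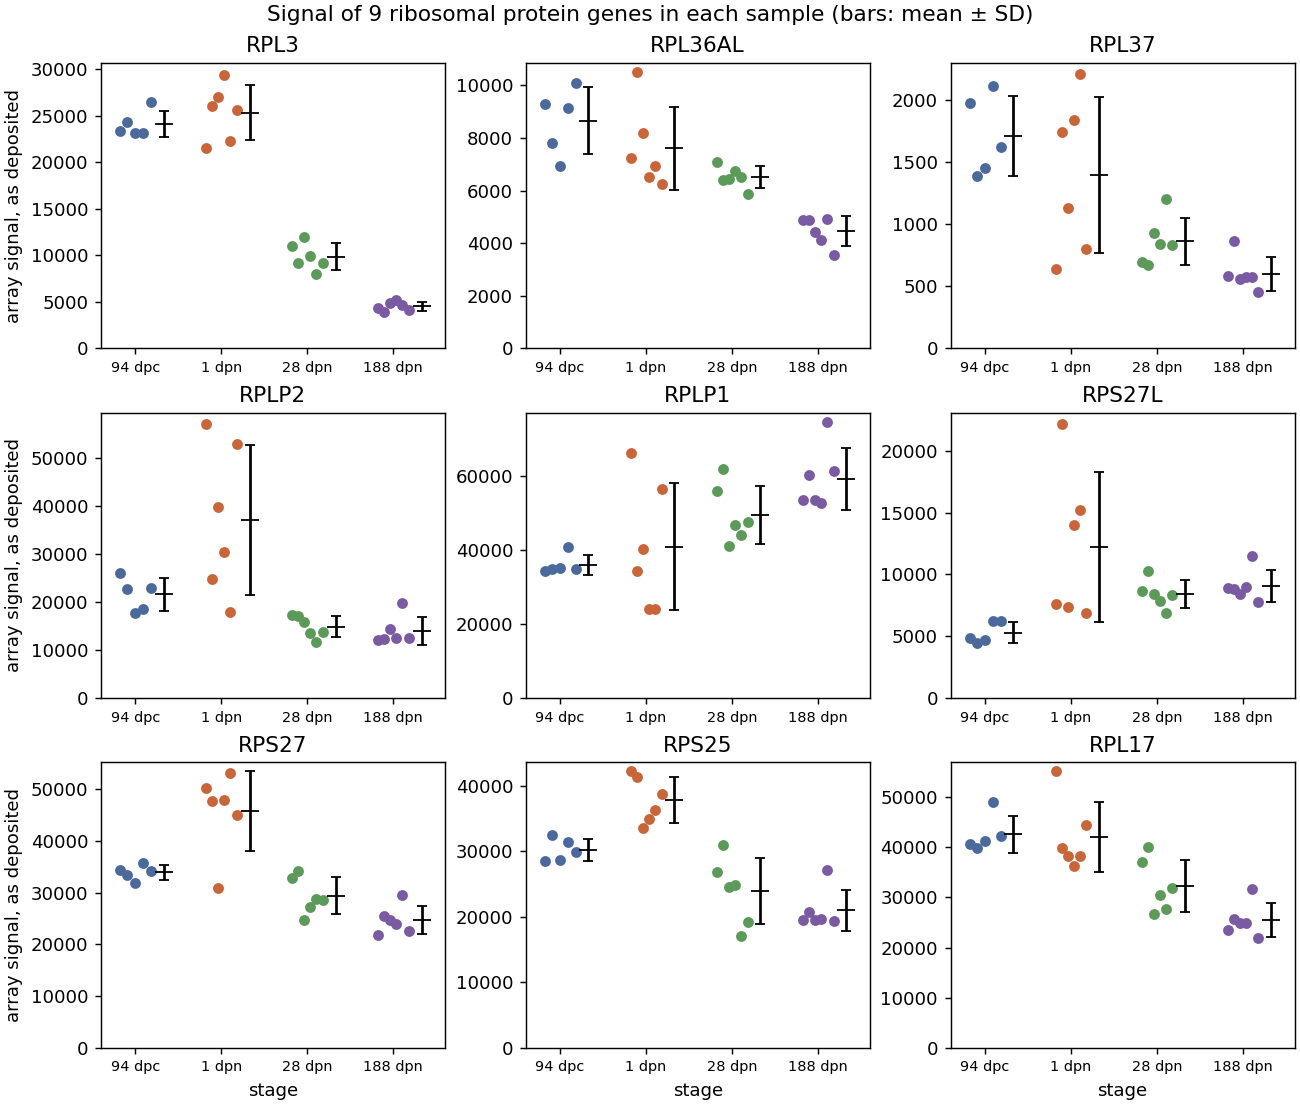
Signal as deposited (linear scale from 0) of 9 ribosomal protein genes in each sample by stage; points are samples and bars show the mean ± SD of each stage. RPL3, RPL36AL and RPL37 are lowest at 188 dpn, RPLP1 has its highest and RPLP2 its lowest mean at 188 dpn, and the 3 highest RPS27L points at 1 dpn are the samples of low GAPDH ratio.

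The stalk of the large subunit recruits the GTPases of translation. RPLP0 holds it to the ribosome and RPLP1 and RPLP2 form the dimers that extend from it. As deposited, the brighter RPLP1 probe set was higher and RPLP2 lower at 188 dpn than at 94 dpc. RPLP1 had 52500, 56800 and 74400 at 188 dpn (lowest, median and highest), against 34200, 34900, 35000, 40700 and 34700 at 94 dpc. No sample overlapped, and the change was 0.71 ± 0.22 (limma, adjusted p = 0.015), 1.64-fold higher. After quantile normalization it was 0.28 and not called (adjusted p = 0.24), while relative to the ribosomal protein median it was 0.81 (limma, adjusted p = 0.0011). A second, dim RPLP1 probe set went the other way, with 167 at 188 dpn, against 601 at 94 dpc, a change of -1.79 (limma, adjusted p = 4.6e-07). The mean of both probe sets was called lower, at -0.54 (limma, adjusted p = 0.011), so the direction of RPLP1 rests on the brighter probe set.

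RPLP2 fell at 28 dpn against 1 dpn. Its signals were 11700, 14800 and 17200 at 28 dpn (lowest, median and highest), against 18000, 35100 and 57100 at 1 dpn. The change was -1.22 ± 0.23, 2.33-fold lower, without overlap (limma, adjusted p = 0.00074), and -1.43 without the samples of high A and S ratio (limma, adjusted p = 0.0088). At 188 dpn RPLP2 had 12100, 12600 and 19800, against 26000, 22800, 17800, 18600 and 22900 at 94 dpc. That change was -0.64 ± 0.24 (limma, adjusted p = 0.043), with replicate 5 of 188 dpn above the lowest samples of 94 dpc. It was no longer called relative to the array median, at -0.35 (limma, adjusted p = 0.28), or to the ribosomal protein median, at -0.54 (limma, adjusted p = 0.057). RPLP2 rose at 1 dpn against 94 dpc by 0.68 ± 0.24 (limma, adjusted p = 0.043) and was not called after quantile normalization, at 0.23. The change was 1.20 without the samples of low GAPDH ratio (limma, adjusted p = 0.00024) and 0.89 without those of high A and S ratio (limma, adjusted p = 0.067).

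Within 1 dpn both acidic stalk transcripts split with the GAPDH ratio. RPLP1 had 24100 to 34300 in the samples of low ratio and 40300 to 66000 in the others, and RPLP2 had 18000 to 30400 and 39800 to 57100. RPLP0 had 50000, 57700 and 69300 at 188 dpn, against 43800, 45400, 47000, 54500 and 46600 at 94 dpc. The change was 0.28 (limma, adjusted p = 0.17), -0.35 after quantile normalization (limma, adjusted p = 0.022) and 0.39 relative to the ribosomal protein median (limma, adjusted p = 0.042), so its direction was set by the scaling. A dim second RPLP0 probe set had 72.2 at 188 dpn, against 517 at 94 dpc (limma, adjusted p = 0.00038), and the mean of both was called lower, at -1.18 (limma, adjusted p = 0.0021). RPLP0 was called in neither of the comparisons with 1 dpn as deposited, at 0.35 against 94 dpc and, for 28 dpn, at -0.08.

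The subunits were also set side by side, without a test of the difference between them, and against the shares of all probe sets given above (13.3% higher and 23.4% lower at 188 dpn against 94 dpc). In that comparison the 35 large subunit genes had a median change of -0.14 with 1 higher and 8 lower, and the 25 small subunit genes a median of 0.05 with 2 higher and 2 lower. After quantile normalization the medians were -0.49 with 0 higher and 23 lower and -0.43 with 0 higher and 14 lower, and relative to the array median 0.16 and 0.34. For 1 dpn against 94 dpc, where 8.08% of all probe sets were higher and 17.9% lower, the large subunit genes had a median of 0.08 with 4 higher and 0 lower, and the small subunit genes 0.37 with 5 higher and 1 lower. Quantile normalization turned these to -0.29 with 0 higher and 13 lower and to -0.07 with 1 higher and 4 lower. Neither subunit had a call without the samples of high A and S ratio, with medians of -0.03 and 0.03. At 28 dpn against 1 dpn, where 7.03% of all were lower, 7 of each subunit fell, with medians of -0.20 and -0.34. In turn 4 of each fell without the samples of low GAPDH ratio, and without those of high A and S ratio 2 large subunit genes and 0 small subunit genes.

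RPS25, known for its part in initiation at internal entry sites, was lower at 28 dpn than at 1 dpn and at 188 dpn than at 94 dpc. It had 17100, 24800 and 31000 at 28 dpn (lowest, median and highest), against 33500, 37600 and 42300 at 1 dpn, without overlap, and the change was -0.68 ± 0.15 (limma, adjusted p = 0.0033). At 188 dpn it had 19300, 19600 and 27200, against 28500, 32400, 28600, 31400 and 29900 at 94 dpc. Every 188 dpn sample was lower and the change was -0.53 ± 0.16 (limma, adjusted p = 0.012). With the mean of all its probe sets the first change was -0.16 (limma, adjusted p = 0.66), and 1 dim probe set had 0.45 there. The first of these calls was also lost without the samples of high A and S ratio, at -0.51 (limma, adjusted p = 0.39), and the second after centring on the array median, at -0.24 (limma, adjusted p = 0.23). Of its other, dim probe sets, 1 was also lower at 188 dpn than at 94 dpc, at -1.41 (limma, adjusted p = 0.0085), and the other had 0.12 (limma, adjusted p = 0.82).

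RPS24, mutated in some human families with Diamond-Blackfan anaemia, was the single member called lower at 1 dpn against 94 dpc. Its signals were 12700, 21800 and 34500 at 1 dpn (lowest, median and highest), against 33300, 32500, 32600, 38300 and 35100 at 94 dpc, a change of -0.70 ± 0.22 (limma, adjusted p = 0.023). The samples of low GAPDH ratio had 12700 to 17900 and the other 1 dpn samples 25700 to 34500. Without the samples of low ratio the change was -0.18 (limma, adjusted p = 0.51), and without those of high A and S ratio -0.42 (limma, adjusted p = 0.37). After quantile normalization RPS24 was called in all samples, at -1.04, and with either set left out, at -0.69 and -0.78 (limma, adjusted p = 0.0021 and 0.033). Relative to the array median it was not called, at -0.43 (limma, adjusted p = 0.16).

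RPS26, which lines the channel where the mRNA leaves the small subunit, and RPS21 rose at 1 dpn. RPS26 had 41700, 57000 and 66600 at 1 dpn (lowest, median and highest), against 37300, 37000, 38400, 40100 and 38300 at 94 dpc, with no overlap and a change of 0.57 ± 0.15 (limma, adjusted p = 0.0076). RPS21 had 38900, 49800 and 64400 at 1 dpn, against 34900, 33600, 33700, 39200 and 35700 at 94 dpc, with a change of 0.52 ± 0.15 (limma, adjusted p = 0.012). Both calls were lost after quantile normalization, at 0.26 and 0.19, and without the samples of high A and S ratio, at 0.12 and 0.14.

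RPS27A, made as a fusion of ubiquitin with a small subunit protein, fell after the newborn stage. It had 36500, 40000 and 49600 at 28 dpn (lowest, median and highest), against 48700, 68200 and 73100 at 1 dpn, a change of -0.65 ± 0.14 (limma, adjusted p = 0.0027). Relative to the ribosomal protein median this was -0.42 (limma, adjusted p = 0.056), and without the samples of high A and S ratio -0.24. A second, dim RPS27A probe set had 0.57 (limma, adjusted p = 0.076), and the mean of both -0.04 (limma, adjusted p = 0.89). RPS28, a small protein of the 40S subunit, had 49100, 56400 and 62300 at 188 dpn, against 38100, 40500, 40100, 47700 and 41200 at 94 dpc, all samples higher, and rose by 0.43 ± 0.15 (limma, adjusted p = 0.03). It was -0.16 after quantile normalization (limma, adjusted p = 0.33). Its other probe sets went opposite ways, with a change of 2.11 (limma, adjusted p = 3.5e-06) for the brighter and -1.67 (limma, adjusted p = 0.0028) for the dimmer. The mean of all 3 was not called, at 0.29 (limma, adjusted p = 0.3).

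RPSA, also known as the laminin receptor precursor, RPS6, the target of S6 kinase, and RPS20, the brightest member, were called in no comparison as deposited. RPSA had stage means of 39700 ± 3200 at 94 dpc (SD, n = 5), 47400 ± 9880 at 1 dpn, 37100 ± 5880 at 28 dpn and 36200 ± 4040 at 188 dpn (SD, n = 6 each). RPS6 had 35400 ± 3150, 36300 ± 4160, 40200 ± 5030 and 37000 ± 2050 in the same order, and RPS20 50700 ± 3830, 65600 ± 9660, 58200 ± 8200 and 59500 ± 8890. The ranges of neighbouring stages overlapped for all 3. After quantile normalization RPS20 and RPSA were called lower at 188 dpn than at 94 dpc, at -0.43 (limma, adjusted p = 0.0061) and -0.54 (limma, adjusted p = 0.0021). Relative to the array median RPS20 was instead called higher there, at 0.52 (limma, adjusted p = 0.0074), as was RPS6, at 0.36 (limma, adjusted p = 0.04). RPSA had 0.16 and was not called. At 1 dpn against 94 dpc that centring called RPS20 and RPSA higher, at 0.63 and 0.51 (limma, adjusted p = 0.0026 and 0.018). RPL30, the dimmest member, ranged from 2.55 to 107 over the samples with no call.

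The ratio within paralog pairs shifted with age for some pairs. RPS27L, a close paralog of RPS27 and in human a target of p53, had 7770, 8850 and 11500 at 188 dpn (lowest, median and highest), against 4840, 4460, 4710, 6240 and 6270 at 94 dpc. All 188 dpn samples were higher, and the change was 0.78 ± 0.25 (limma, adjusted p = 0.016), 0.41 after quantile normalization (limma, adjusted p = 0.25). RPS27 itself had 21900, 24300 and 29600 at 188 dpn, against 34400, 33400, 31900, 35800 and 34300 at 94 dpc, and fell by 0.46 ± 0.16 (limma, adjusted p = 0.021). The RPS27 call was lost relative to the array median, at -0.17 (limma, adjusted p = 0.38), relative to the ribosomal protein median, at -0.36 (limma, adjusted p = 0.093), and with the mean of its probe sets, at -0.29 (limma, adjusted p = 0.23).

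The ratio of RPS27L to RPS27 within a sample is little affected when a whole array is multiplied by a constant. The log2 difference of RPS27L minus RPS27 was -1.45 ± 0.11 at 188 dpn (SD, n = 6), against -2.69 ± 0.20 at 94 dpc (SD, n = 5). This shift of 1.24 had an adjusted p of 0.023 by a two-sided exact permutation test, adjusted over 16 tests of 4 pairs. Against 28 dpn, with -1.80 ± 0.17, the shift was 0.36 (exact permutation test, adjusted p = 0.023). When each gene's probe sets were averaged, the shift against 28 dpn was 0.10 (exact permutation test, adjusted p = 0.8), and a dimmer RPS27 probe set had a change of 0.26 there.

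RPS27L rose at 1 dpn against 94 dpc by 1.07 ± 0.25 (limma, adjusted p = 0.0023), 2.1-fold, under all 4 scalings. Its signals were 14000 to 22200 in the 3 samples of low GAPDH ratio and 6870 to 7580 in the other 1 dpn samples, all above 94 dpc. The change was 0.47 without the samples of low ratio (limma, adjusted p = 0.059), and without those of high A and S ratio 0.49 (limma, adjusted p = 0.3). RPS27 lay above all of 94 dpc in every 1 dpn sample but replicate 3, which had 30900, and its change was 0.41 (limma, adjusted p = 0.053). It then fell by 0.63 ± 0.15 at 28 dpn against 1 dpn (limma, adjusted p = 0.0046), or by 0.49 without the samples of low ratio (limma, adjusted p = 0.059). RPS27 had, without the samples of high A and S ratio, -0.08 at 28 dpn against 1 dpn and -0.13 at 1 dpn against 94 dpc, neither called.

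RPL22L1, a paralog of RPL22 that is not a member, had a mean of 3200 ± 487 at 188 dpn, against 5020 ± 986 at 28 dpn (SD, n = 6 each). Its log2 difference to RPL22 was -3.28 ± 0.23 at 188 dpn, against -2.58 ± 0.28 at 28 dpn and -2.68 ± 0.31 at 94 dpc. The shifts were -0.71 and -0.61 (exact permutation tests, adjusted p = 0.023 and 0.028). For RPL7L1 and RPL7 the difference was -3.17 ± 0.13 at 188 dpn, against -3.39 ± 0.10 at 28 dpn, a shift of 0.22 (exact permutation test, adjusted p = 0.028). RPL26L1 minus RPL26 passed in no comparison, with RPL26 under a mean of 100. Its largest shift was -0.73 at 188 dpn against 94 dpc (exact permutation test, adjusted p = 0.058).

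At 1 dpn the dimmer probe sets of 8 ribosomal protein genes moved apart from their brighter partners. As given above, the share of the dimmer probe set also rose in the pairs outside the family, so this was not particular to ribosomal protein genes. The 8 were the A or S partners of RPL6, RPL12, RPL13A, RPL17, RPL23, RPL24, RPL32 and RPS6. All were called higher at 1 dpn than at 94 dpc, by 0.97 to 2.22, where 8.08% of all probe sets were higher. Their brighter partners had changes of -0.38 to 0.25 with no call. The dimmer probe set of RPL13A, for example, had 346 to 2960 at 1 dpn with a mean of 1860 ± 904, against 280 to 394 at 94 dpc. All 8 dimmer probe sets were called lower again at 28 dpn against 1 dpn, by -2.19 to -1.14, where 7.03% of all probe sets were lower. Fits without either set of 1 dpn samples are not given for these probe sets. In replicate 3 of 1 dpn, the dimmer probe sets of RPL13A, RPL17, RPL32 and RPS6 lay within the range of 94 dpc.

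Within 1 dpn, some members separated by the GAPDH ratio. In the 3 samples of low ratio 16 members lay below every other 1 dpn sample, 3 lay above and 41 overlapped. The share of all probe sets that separate so was not computed. With so few samples some genes separate by chance, so the counts are not read as particular to the family. RPL29, with 21800 to 24100 in the samples of low ratio and 36800 to 61400 in the others, RPLP2 and RPS24 differed most downward, by -1.08 to -1.04. RPS27L, RPL37 and RPS18 were the 3 that lay above. The interquartile range of the 60 log2 values was 0.967 to 1.14 in the samples of low ratio and 0.369 to 0.667 in the other 1 dpn samples.

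Genes that build ribosomes were described from a list of 83 genes, 64 of them measured. It holds assembly and rRNA synthesis factors and also the ribosomal protein paralogs RPL22L1, RPL7L1 and RPL26L1. Of these paralogs, RPL26L1 was among those lower at 1 dpn against 94 dpc. At 188 dpn against 94 dpc RPL26L1 and RPL22L1 were among those lower. Of the 64 genes, 11 were higher and 6 lower at 1 dpn against 94 dpc, where 8.08% of all probe sets were higher and 17.9% lower. Relative to the array median 19 were higher and 2 lower, against 15% and 10.3% of all. The counts were 14 and 5 without the samples of low GAPDH ratio, against 7.81% and 17.2%. The median change was 0.10 in all samples, where all probe sets had -0.11. Without the samples of high A and S ratio it was 0.46, where all probe sets had -0.20. NPM3, a nucleolar chaperone, had 1630 ± 1070 at 1 dpn, against 573 ± 56.3 at 94 dpc (limma, adjusted p = 0.0056), and stayed called without either set of samples. TAF1D, a factor of RNA polymerase I, rose by 2.43 (limma, adjusted p = 0.049), and BOP1, needed for the large subunit rRNA, fell by 1.22 (limma, adjusted p = 0.018). Neither TAF1D nor BOP1 was called without either set.

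For 28 dpn against 1 dpn 2 assembly factors were higher and 14 lower, where 10.1% of all probe sets were higher and 7.03% lower, with a median of -0.29. Relative to the array median the counts were also 2 and 14, against 8.23% and 8.5% of all probe sets. Without the samples of low GAPDH ratio they were 2 and 13, against 8.29% and 5.11%. Without those of high A and S ratio the median was -0.59, and 0.09 over all probe sets. PES1, the partner of BOP1, had 176 ± 50.5 at 28 dpn, against 455 ± 99.8 at 1 dpn (limma, adjusted p = 7.7e-05), and stayed called without either set. MRTO4, a factor of large subunit assembly, fell by 1.34 (limma, adjusted p = 9.2e-05), and POLR1D, a subunit of RNA polymerases I and III, rose by 1.75 (limma, adjusted p = 0.00047). Both lost the call without the samples of high A and S ratio, at -1.28 and 0.94 (limma, adjusted p = 0.057 and 0.087).

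Later in growth the assembly factors moved both ways. At 188 dpn against 28 dpn 1 was higher and 2 lower, where 4.66% of all probe sets were higher and 9.15% lower. Relative to the array median the counts were 4 and 1, with no share of all probe sets given. BOP1 rose by 1.21 (limma, adjusted p = 0.023), while IMP4, of the small subunit processome, and NPM1, nucleophosmin, fell by 0.71 and 0.56 (limma, adjusted p = 0.013 and 0.038). Set against 94 dpc, 12 were higher and 15 lower at 188 dpn, where 13.3% of all were higher and 23.4% lower. After quantile normalization these were 15 and 11, against 17.4% and 18.3% of all. Relative to the array median they were 18 and 10, against 22% and 16.7%. DKC1, the pseudouridine synthase of rRNA, had 310 ± 36.8 at 188 dpn, against 749 ± 132 at 94 dpc (limma, adjusted p = 3.6e-05). IMP3, also of the small subunit processome, had 4960 ± 279 at 188 dpn, against 2210 ± 356 at 94 dpc (limma, adjusted p = 1.3e-05), and BYSL rose by 1.15 (limma, adjusted p = 0.024).

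Of 21 other mRNAs known to carry the same terminal oligopyrimidine start, 16 were measured, and their direction depended on the scaling. At 188 dpn against 94 dpc 2 were higher and 4 lower as deposited, where 13.3% of all probe sets were higher and 23.4% lower. After quantile normalization 0 were higher and 8 lower, against 17.4% and 18.3% of all. Relative to the array median the counts were 6 and 3, against 22% and 16.7%. PABPC1, the cytoplasmic poly(A)-binding protein, had 3810 ± 403 at 188 dpn, against 14400 ± 1460 at 94 dpc, a change of -1.91 (limma, adjusted p = 4.8e-08). It was also lower at 188 than at 28 dpn, by -0.60 (limma, adjusted p = 0.035). At 28 than at 1 dpn it had -0.66 (limma, adjusted p = 0.017), and -0.26 without the samples of low GAPDH ratio (limma, adjusted p = 0.35). HNRNPA1, a splicing regulator, had 2320 ± 573 at 188 dpn, against 6520 ± 1180 at 94 dpc (limma, adjusted p = 0.00013), and EIF3H, a subunit of an initiation factor, fell by 0.93 (limma, adjusted p = 3.8e-05). NACA, of the nascent chain complex, fell by 0.43 at 188 dpn against 28 dpn (limma, adjusted p = 0.044) and was not called after quantile normalization.

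Around birth, the same list had 0 higher and 5 lower at 1 dpn against 94 dpc as deposited. Of all probe sets 8.08% were higher and 17.9% lower. Relative to the array median the list had 6 higher and 2 lower, against 15% and 10.3% of all. Without the samples of low GAPDH ratio it had 1 higher and 4 lower, against 7.81% and 17.2%. Its median was -0.0065 without those of high A and S ratio, where all probe sets had -0.20. EIF3E, a subunit of an initiation factor, fell by 0.85 (limma, adjusted p = 0.0037) and stayed called without the samples of low GAPDH ratio and without those of high A and S ratio. BTF3, the partner of NACA, fell by 0.85 (limma, adjusted p = 0.016) and EIF4B, another initiation factor, by 0.75 (limma, adjusted p = 0.00037). At 28 dpn against 1 dpn BTF3 and EIF4B rose by 0.85 and 0.84. BTF3 was not called in either comparison without the samples of low GAPDH ratio, at -0.16 and 0.16, and EIF4B in neither without those of high A and S ratio, at -0.36 and 0.44.

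Of 19 genes that signal to the ribosome, 8 were measured. MYC, the transcription factor known to drive ribosome production, had 212 ± 55.9 at 188 dpn, against 480 ± 207 at 28 dpn and 966 ± 180 at 94 dpc. Its changes were -1.05 (limma, adjusted p = 0.019) and -2.12 (limma, adjusted p = 7.8e-06). TSC2, which restrains mTOR, had 188 ± 45 at 1 dpn, against 367 ± 48.5 at 94 dpc (limma, adjusted p = 0.00058), and stayed called without either set of 1 dpn samples. It had 289 ± 54.4 at 28 dpn, against 188 ± 45 at 1 dpn (limma, adjusted p = 0.021), and this call was lost without the samples of low GAPDH ratio (limma, adjusted p = 0.11). EIF4EBP2, a translational repressor under mTOR, fell by 0.62 at 188 dpn against 28 dpn (limma, adjusted p = 0.025). LARP4, an RNA-binding protein, and AKT1S1, a part of the mTOR complex, rose by 1.16 and 0.57 at 188 dpn against 94 dpc (limma, adjusted p = 0.00029 and 0.035), and AKT1S1 lost the call after quantile normalization.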

How the data were processed

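The deposited table held 1 intensity per probe set and sample of a porcine Affymetrix array, on a linear scale, made by the authors from 0.5 µg of total RNA per the labels' protocols. The submitters' processing notes list GCOS 1.1.1 and give it no role. How probes were summarised, and any batch, is not given in the sources used here. Of 24123 probe sets, 124 control probe sets were left out and 23999 tested, and 0 columns lacked a sample. Members and lists were chosen with earlier results of these data known. Probe sets of the kinds that can match several transcripts stood for 9 members (6 ending in _a_at and 3 in _s_at), and ribosomal protein genes have many near-identical copies, so signals may include these. Means per stage over all 23 samples were fitted to log2(signal + 16) with limma 3.58.1 in R 4.3.3 (lmFit, eBayes), and p-values were adjusted by Benjamini-Hochberg across the probe sets tested. The precision rests on the number of arrays. Paralog pairs were compared by exact permutation tests with scipy 1.17.1. Members named with values were, per comparison, up to 6 called in each direction with the largest change, plus, in every comparison, the paralogs and their partners, the stalk proteins, RPSA, RPS6 and the members of highest and lowest mean. Related lists were named by up to 3 called genes each. In simulated data limma found 30 to 39 of 100 probe sets shifted by 1 and 81 to 83 of 100 shifted by 2 on the log2 scale. These were drawn at random from all 23999 probe sets, most of them far dimmer than the members, and few were shifted. The shares found therefore do not carry over to the members. Alternatives were other scalings, pseudocounts of 1 and 64, a filter on dim probe sets, array weights, trended and robust eBayes, only the stages compared, the mean of a gene's probe sets and leaving out samples. No sequence was used here.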

Additional observations from a re-analysis of the deposited data

Results flagged for a closer look

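In each stage the highest and lowest sample of the named members was set against the others by Dixon's criterion, in 84 groups, of which 14 held a sample far from the rest. Chance gives about 1 in 20 for independent groups, but these groups share the same arrays and are not independent. Of these samples, 7 were replicate 5 of 188 dpn, which had the highest signal for RPL27 (51000, others 36600 to 40900), RPL31 (49100, others 30600 to 35500), RPLP2 (19800, others 12100 to 14400) and RPS20 (77200, others 52500 to 58000). It was also highest for RPS25 (27200, others 19300 to 20700), RPS26 (57100, others 40700 to 46100) and RPS27L (11500, others 7770 to 8980). Replicate 4 of 94 dpc had the highest RPL17 (49100, others 39900 to 42200), RPLP1 (40700, others 34200 to 35000), RPS20 (57300, others 47500 to 49800) and RPSA (45200, others 37500 to 39700). In both samples the median signal of the whole family was also the highest of the stage. It was 41000 in the 188 dpn sample (others 31100 to 35300) and 40600 in the 94 dpc sample (others 35000 to 38100). RPL30 was at 75.2 in replicate 5 of 94 dpc, with 7.09 to 12.2 in the others. RPL37 was at 866 in replicate 2 of 188 dpn, with 458 to 583 in the others. RPS27 was low in replicate 3 of 1 dpn, at 30900, with 45100 to 53100 in the others.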

How the results depend on the processing

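No paired analysis was possible because the replicate numbers only name samples in accession order. Array weights and a pseudocount of 1 moved no count of called members by over 1.5 times. Centring on the ribosomal protein median and leaving out the 1 dpn samples of high A and S ratio were chosen after seeing the data. The changes of RPL3 at 28 dpn against 1 dpn (-1.42 to -1.30), 188 dpn against 28 dpn (-1.18 to -1.06) and 188 dpn against 94 dpc (-2.46 to -2.38) stayed called with any single sample left out. For the results that moved, the cause was not tested. Where no share of all probe sets is given for a setting, its counts of calls are not read as a result about the family.

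Quantile normalization gave 18 called members at 1 dpn against 94 dpc (median -0.18), 37 at 188 dpn against 94 dpc (median -0.44) and 44 in the test over all stages. It turned the sign at 1 dpn against 94 dpc for RPL3 (-0.41), RPLP0 (-0.08), RPLP1 (-0.17), RPS20 (-0.07), RPS6 (-0.31) and RPSA (-0.16). At 188 dpn it did so for RPLP0 (-0.14) and RPS20 (-0.13) against 28 dpn and for RPLP0 (-0.35), RPS20 (-0.43), RPS28 (-0.16) and RPS6 (-0.22) against 94 dpc. Centring on the array median gave 32 called at 1 dpn against 94 dpc (median 0.51), 22 at 28 dpn against 1 dpn, 1 at 188 dpn against 28 dpn, 21 at 188 dpn against 94 dpc (median 0.23) and 40 over all stages. Signs turned for RPL36AL at 1 dpn against 94 dpc (0.07), RPSA at 188 dpn against 28 dpn (0.07), and RPL30 (0.16) and RPSA (0.16) at 188 dpn against 94 dpc.

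Centring on the ribosomal protein median gave 6, 9 and 1 called at 1 dpn against 94 dpc, 28 dpn against 1 dpn and 188 dpn against 28 dpn. Signs turned at 1 dpn against 94 dpc for RPL3 (-0.10), RPLP1 (-0.08) and RPS6 (-0.13), at 28 dpn against 1 dpn for RPL36AL (0.03), RPLP0 (0.15) and RPS20 (0.06), and at 188 dpn against 28 dpn for RPSA (0.0052). Calls at 1 dpn against 94 dpc numbered 21 with trended and robust eBayes, 19 with the mean of all probe sets, 2 with only the stages compared, 18 with a pseudocount of 64 and 22 without dimmer probe sets. At 28 dpn against 1 dpn they numbered 22 with trended and robust eBayes, 5 with only the stages compared and 22 without dimmer probe sets.

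The mean of all probe sets turned the sign at 1 dpn against 94 dpc for RPLP0 (-0.50) and RPLP1 (-0.23), at 28 dpn against 1 dpn for RPLP1 (-0.10) and RPS6 (-0.50), at 188 dpn against 28 dpn for RPLP0 (-0.23), RPLP1 (-0.21), RPS27 (0.003) and RPS6 (0.04), and at 188 dpn against 94 dpc for RPLP0 (-1.18) and RPLP1 (-0.54), both then called lower. With it the pair RPS27L and RPS27 was at 0.10 at 188 dpn against 28 dpn and RPL7L1 and RPL7 at 0.65, both no longer called, and RPL7L1 and RPL7 at -0.08 at 1 dpn against 94 dpc. A pseudocount of 64 brought RPL26L1 and RPL26 to a call at 1 dpn (-0.89) and 188 dpn (-0.77) against 94 dpc.

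Without the samples of high A and S ratio 0 members were called at 1 dpn against 94 dpc (median -0.0047; limma, 1 with an unadjusted p under 0.05) and 2 at 28 dpn against 1 dpn (median -0.05). Signs turned for RPS27 (-0.13) in the first and for RPLP0 (0.25), RPS20 (0.17) and RPS27L (0.18) in the second. With quantile normalization as well, 1 and 2 were called, the median of the first was -0.15, and signs turned for RPL3 (-0.36), RPLP0 (-0.07), RPS20 (-0.02), RPS27 (-0.35) and RPS6 (-0.15) in the first and RPLP1 (-0.0015) and RPS27L (0.22) in the second.

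Without the samples of low GAPDH ratio 8 were called at 28 dpn against 1 dpn, and signs turned there for RPLP1 (-0.12) and RPS27L (0.20), and at 1 dpn against 94 dpc for the pair RPL22L1 and RPL22 (-0.44). With quantile normalization as well, 15 were called at 1 dpn against 94 dpc (median -0.17), 46 at 188 dpn against 94 dpc (median -0.44) and 44 over all stages. Signs then turned at 1 dpn against 94 dpc for RPL3 (-0.59), RPL31 (-0.14), RPLP0 (-0.01), RPS20 (-0.07), RPS27 (-0.19), RPS6 (-0.32) and RPSA (-0.03), and at 28 dpn against 1 dpn for RPLP1 (-0.04) and RPS27L (0.25). They also turned at 188 dpn for RPLP0 (-0.14) and RPS20 (-0.13) against 28 dpn, and for RPLP0 (-0.35), RPS20 (-0.43), RPS28 (-0.16) and RPS6 (-0.21) against 94 dpc.

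Leaving out single samples gave 6 to 19 calls at 1 dpn against 94 dpc and 8 to 20 at 28 dpn against 1 dpn. At 1 dpn against 94 dpc, the change of RPLP1 ran from -0.08 to 0.21, of RPS6 from -0.02 to 0.08, of the pair RPL22L1 and RPL22 from -0.10 to 0.23 and of RPL7L1 and RPL7 from -0.03 to 0.15. At 28 dpn against 1 dpn these pairs ran from -0.13 to 0.20 and from -0.38 to -0.19. At 188 dpn against 28 dpn, RPLP0 ran from -0.04 to 0.05, RPS20 from -0.05 to 0.08, RPSA from -0.08 to 0.03 and RPL7L1 and RPL7 from 0.19 to 0.26. At 188 dpn against 94 dpc, RPL30 ran from -0.26 to 0.24, and the pairs RPL22L1 and RPL22 from -0.73 to -0.53, RPL7L1 and RPL7 from -0.05 to 0.05 and RPL26L1 and RPL26 from -0.86 to -0.59. The calls of RPL31, RPLP2 and RPS24 at 1 dpn and of RPLP2 and RPS28 at 188 dpn, all against 94 dpc, were each lost without at least 1 single sample. The pair RPL22L1 and RPL22 at 188 dpn against 94 dpc lost its call on leaving out any 1 of 8 samples (exact permutation test, adjusted p up to 0.061). The pair RPL7L1 and RPL7 at 188 dpn against 28 dpn lost it for any 1 of 9 (exact permutation test, adjusted p up to 0.055).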

Other observations

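The control probe set for 18S ribosomal RNA, which the comparisons leave out, gave signals of 8840 to 28900 at 188 dpn with a median of 12400, and of 6280 to 24200 at 28 dpn with a median of 11400. It gave 1810 to 10900 at 1 dpn, with a median of 3460, and 2660 to 9730 at 94 dpc, with a median of 7890. The ranges of 188 dpn and 94 dpc overlapped, as did those of 188 and 28 dpn and of 188 and 1 dpn, and no test was run on this probe set. RPL26L1, a paralog of RPL26 outside the family as counted here, had 1600 ± 576 at 1 dpn (SD, n = 6), against 3370 ± 406 at 94 dpc (SD, n = 5), a change of -1.13 (limma, adjusted p = 0.00019). It stayed below 94 dpc at 188 dpn, with 1790 ± 159 and a change of -0.90 (limma, adjusted p = 0.001). RPL22L1 had a change of -0.83 at 188 dpn against 94 dpc (limma, adjusted p = 0.019).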
